A study of Mus musculus with 45 samples.

Results

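The transcripts of 5 Fgf ligands (Fgf4, Fgf5, Fgf8, Fgf15 and Fgf17) and of the 4 Fgf receptors (Fgfr1, Fgfr2, Fgfr3 and Fgfr4) were followed as male mouse embryonic stem cells (ESCs) differentiated. These 9 genes were taken by symbol from the 35372 genes of each count table, and all 9 passed the filter on low counts that left 17107 genes for testing. Wild-type E14tg2a ESCs, a single line of 129/Ola background, were kept either in 2iL or in SL. The 2iL medium is serum-free N2B27 with the GSK3 inhibitor CHIR99021, the MEK inhibitor PD0325901 and the cytokine LIF, whereas SL is serum with LIF. From each medium, cells were moved into 3 courses of differentiation. These were suspension culture in serum without LIF, which forms embryoid bodies (EB), adherent culture in N2B27 with Fgf2 and ActivinA (FA, labelled EpiSC), and adherent culture in N2B27 alone (labelled neural and called N2B27 here). RNA depleted of ribosomal RNA was sequenced on days 0, 1, 1.5, 2, 2.5, 3, 5 and 7 in 45 libraries, 23 from 2iL and 22 from SL, with 1 library for each medium, course and day. The 3 courses from SL share 1 library of day 0, and day 5 of the FA course from 2iL was not analysed here. Nothing in the labels says that the libraries of a course came from separate cultures. The p-values thus measure the spread between these libraries, over courses and days, and not that between independent cultures. Part of this spread may be technical. Matched pairs from different days of a course may be serial samples of the same culture, so their number is not a number of independent cultures.

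Fgf ligands are secreted proteins that dimerise receptor tyrosine kinases with the help of heparan sulphate, and the activated receptor signals through the adaptor Frs2 and Ras to the kinases MEK and ERK. In naive pluripotent cells Fgf4 is the main autocrine ligand of this pathway, and ERK activity downstream of it lets the cells leave self-renewal, which is why 2iL contains a MEK inhibitor. Fgf5 is the classical marker of the epiblast after implantation, Fgf8 and Fgf17 are close relatives used in the primitive streak and at the border of midbrain and hindbrain, and Fgf15, the mouse counterpart of human FGF19, is expressed in the early nervous system and acts as a hormone in the adult gut. Among the receptors, Fgfr1 is the principal receptor of the epiblast, Fgfr2 is prominent in the primitive endoderm, Fgfr3 marks neural progenitors and Fgfr4 is used by endoderm and its derivatives.

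Levels are in CPM, the reads of a gene scaled to a common library total. Totals ranged from 13093226 to 39804240 reads with a median of 18222720, at which 3 reads are 0.165 CPM. Median totals were 34490692 reads for the EB libraries from 2iL and 17297450 reads for all others. Tests used the quasi-likelihood method of edgeR in a single fit over the 45 libraries, with p-values adjusted over all 17107 genes and a gene called at an adjusted p under 0.05. Days and media were compared with the 3 courses as replicates, and courses were compared over days 1, 1.5 and 2, over days 2.5 and 3 and over days 5 and 7, at matched medium and day. In these bulk samples, fewer cells of a type and less RNA per cell cannot be told apart.

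The labels were checked against marker genes. The summed level of 7 pluripotency genes was between 4692 and 4878 CPM in the 3 day 0 libraries of 2iL, 3214 CPM in that of SL and between 208 and 369 CPM in N2B27 on days 5 and 7. The summed level of 5 neural genes was between 362 and 646 CPM in those N2B27 libraries, between 174 and 378 CPM in FA and between 98.4 and 262 CPM in EBs of the same days. Extraembryonic endoderm genes (Gata4, Gata6, Sox7, Sox17, Cubn and Dab2) were also high where the label names neural cells, with a summed level between 1154 and 2641 CPM in N2B27 on days 5 and 7, against 93.4 to 883 CPM in EBs and 109 to 345 CPM in FA. At day 0 this sum was between 3.26 and 5.44 CPM in 2iL and 428 CPM in SL, and no gene of the list was at 0 in all libraries of a group.

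The 9 genes lie on 6 chromosomes. In the RefSeq annotation of GRCm38, Fgf4 (144861386 to 144865245) and Fgf15 (144896532 to 144900953) are neighbours on the plus strand of chromosome 7 with 31286 bases between them, and Fgf3, another ligand gene, lies 18037 bases before Fgf4. Fgfr2 is on the minus strand of the same chromosome (130162451 to 130266808). Fgf5 (98254184 to 98277033) and Fgfr3 (33721724 to 33737068) are on the plus strand of chromosome 5. Fgf8 (45736491 to 45742941) is on the minus strand of chromosome 19 and Fgf17 (70636203 to 70642268) on that of chromosome 14. Fgfr1 (25518759 to 25575718) is on the plus strand of chromosome 8 and Fgfr4 (55152818 to 55168759) on that of chromosome 13. All are protein-coding, and counts are of reads over their exons. In GENCODE M21, 314 of the 10328 exon bases of Fgfr2 are shared with Ctbp2 on the same strand, so reads there cannot be assigned to either gene. Antisense genes overlap exons of Fgf15, Fgfr1 and Fgfr3, but the authors counted by strand.

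Fgf4 is the ligand with the highest level on day 0 and Fgf5 the one that rose most on day 1, so their promoters are shown for comparison. These are the 250 bases before the start of each gene (RefSeq, GRCm38.p6, plus strand), with CG dinucleotides in capitals.
Fgf4, chr7:144861136-144861385: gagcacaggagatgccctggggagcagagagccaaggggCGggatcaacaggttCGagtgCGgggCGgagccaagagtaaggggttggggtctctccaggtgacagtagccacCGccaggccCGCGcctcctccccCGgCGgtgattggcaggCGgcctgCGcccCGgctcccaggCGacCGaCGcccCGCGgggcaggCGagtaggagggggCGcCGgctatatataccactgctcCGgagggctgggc
Fgf5, chr5:98253934-98254183: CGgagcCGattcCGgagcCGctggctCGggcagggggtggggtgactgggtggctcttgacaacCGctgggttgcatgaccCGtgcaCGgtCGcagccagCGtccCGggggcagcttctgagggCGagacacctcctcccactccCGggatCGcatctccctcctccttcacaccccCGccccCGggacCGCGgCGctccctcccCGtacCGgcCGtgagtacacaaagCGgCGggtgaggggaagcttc
The Fgf4 sequence held 21 CG dinucleotides with 71.2% G or C, and that of Fgf5 held 24 with 70.8%. Both lie above the median of 6 CG and 52.4% over 32851 promoters of the same length. Neither contains the exact motif TATAAA on either strand, which is present in 12.4% of all promoters. The Fgf4 sequence holds the similar run tatatata close to its end, which a search for TATAAA does not count, and that of Fgf5 does not. Of the 5 members with an entry, Fgfr2 was the one below that median, with 2 CG and 44% G or C.

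**Figure D1:**
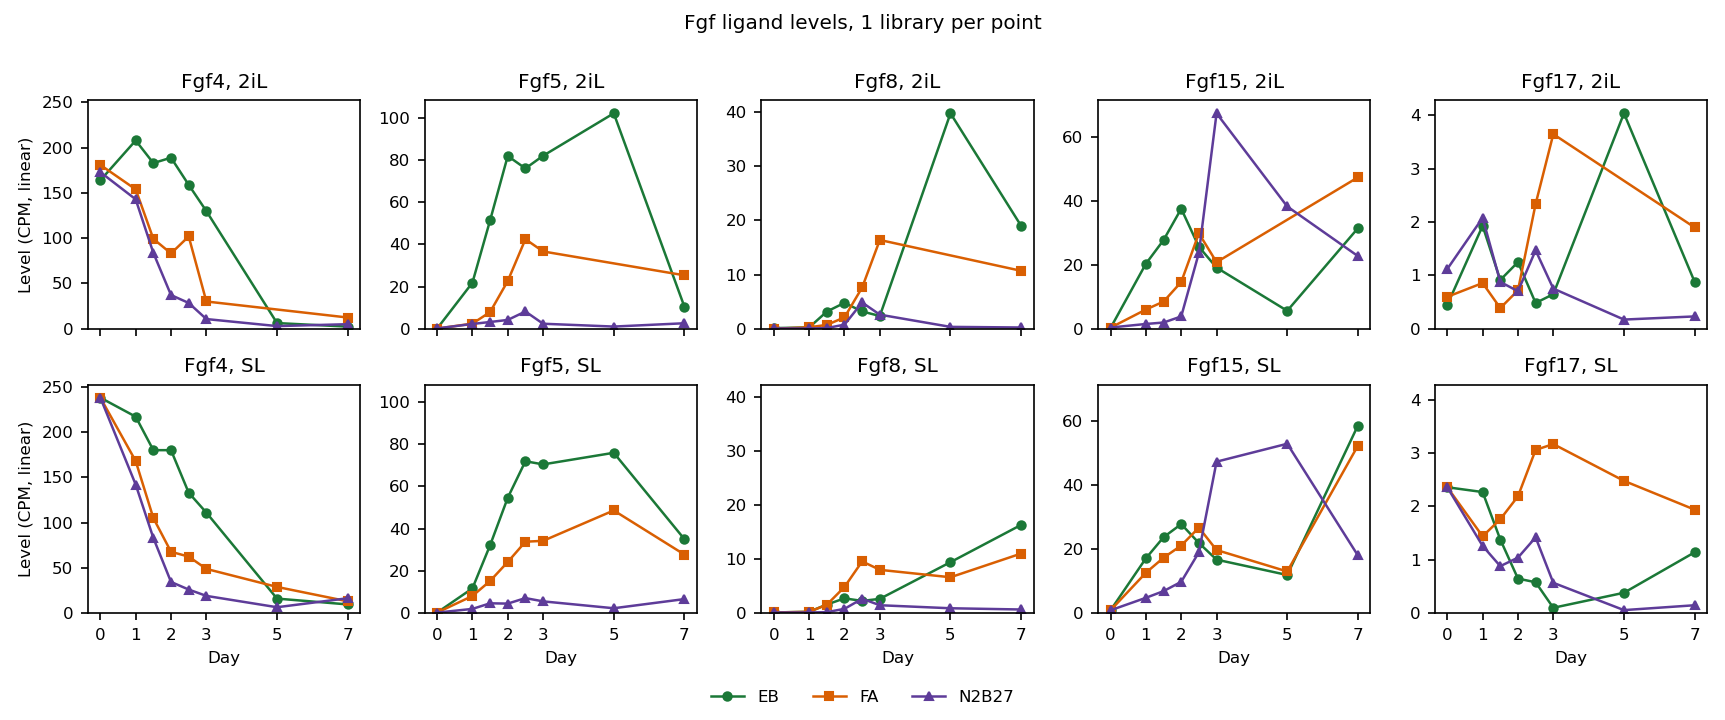
Levels of the 5 ligands in CPM (linear axis from 0, 1 scale per gene) against the day, with 2iL in the upper and SL in the lower row and 1 library per point. EB, FA and N2B27 are green circles, orange squares and purple triangles. Fgf4 is higher in EBs than in N2B27 on days 1 to 3 and at or below 28.9 CPM in every course on days 5 and 7. Fgf5 stays at or below 8.17 CPM in N2B27 while it reaches 102 CPM in EBs.

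Fgf4, the ligand of undifferentiated cells, was at 173 ± 8.33 CPM (SD, n = 3) on day 0 in 2iL and at 238 CPM in the single SL library, and this difference did not pass the test (log2 fold change -0.35, SE 0.47, adjusted p = 0.6). No difference between day 1 and day 0 was called in either medium, and the level stayed high for longest in EBs. In EBs from 2iL it was at 208, 183, 189, 159, 130, 6.28 and 2.32 CPM on days 1, 1.5, 2, 2.5, 3, 5 and 7. In N2B27 from 2iL it was at 143, 83.8, 37.2, 28.5, 10.7, 2.92 and 5.02 CPM on these days. FA from 2iL lay between them on days 1.5 to 3, with 99.3, 83.2, 102 and 30.1 CPM, and ended at 12.4 CPM. The courses from SL had the same order on days 1.5 to 3, so that on day 2 Fgf4 was at 180 CPM in EBs, 67.7 CPM in FA and 34.4 CPM in N2B27. On day 7 the order from SL was the reverse, at 9.57, 13 and 16.4 CPM. EBs exceeded N2B27 in 6 of 6 matched pairs on days 1 to 2 (log2 1.24, SE 0.25, 2.36-fold, adjusted p = 0.00045) and in 4 of 4 on days 2.5 and 3 (log2 2.67, SE 0.32, 6.36-fold, adjusted p = 5.8e-07). On days 5 and 7 no such difference was called, with a log2 value of 0.01 (SE 0.35) and adjusted p = 0.98. FA exceeded N2B27 on days 2.5 and 3 by 1.43 (SE 0.31, adjusted p = 0.0034), and this was not called within either medium alone, at 1.55 in 2iL (adjusted p = 0.086) and 1.3 in SL (adjusted p = 0.11). On days 5 and 7 FA was higher by 1.09 (SE 0.38, adjusted p = 0.025) in 2 of 3 pairs, again without a call within 2iL (1.67, adjusted p = 0.11) or SL (0.81, adjusted p = 0.23). Between day 2 and day 7, Fgf4 fell by 4.12 on the log2 scale from 2iL (SE 0.41, adjusted p = 2.1e-09) and by 2.66 from SL (SE 0.38, adjusted p = 1.8e-06), in 3 of 3 courses each.

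Fgf5, the epiblast ligand, was near the limit of detection on day 0 and rose within a day. The 3 day 0 libraries of 2iL held 6 Fgf5 reads in all and that of SL held 4, which is 0.0595, 0.0665 and 0.14 CPM in 2iL and 0.219 CPM in SL. On day 1 the level was 21.8 CPM in EBs, 2.44 CPM in FA and 2.26 CPM in N2B27 from 2iL, and 11.7, 8.1 and 1.98 CPM from SL. All 6 libraries of day 1 were above all 4 of day 0. Over the pooled reads the ratio of day 1 to day 0 was 134 in 2iL (95% exact interval 61.4 to 367, counting error only) and 32.3 in SL (12.5 to 119). The fitted log2 fold change was 5.87 in 2iL (SE 0.97, adjusted p = 2.1e-05) and 4.74 in SL (SE 1.37, adjusted p = 0.014), where the few reads of day 0 leave the size uncertain, and in SL the call was lost without the FA course (4.41, adjusted p = 0.074). The test of the difference between the media was not passed (1.14, SE 2.41, adjusted p = 0.82).

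The highest Fgf5 levels were in EBs and the lowest in N2B27. EBs from 2iL had 51.3, 81.8, 75.9, 81.9, 102 and 10.4 CPM on days 1.5, 2, 2.5, 3, 5 and 7, and EBs from SL had 32.1, 54.6, 71.9, 70.4, 75.9 and 35 CPM. FA from SL had 15.2, 24.2, 33.8, 34.2, 48.6 and 27.7 CPM, and FA from 2iL 7.89, 22.6, 42.4, 36.6 and 25.3 CPM without day 5. N2B27 was highest on day 2.5 in both media, at 8.17 CPM from 2iL and 7.1 CPM from SL. EBs were above N2B27 in all 14 matched pairs and FA in all 13. Against N2B27, EBs were higher by log2 3.39 (SE 0.39, adjusted p = 3.9e-07) on days 1 to 2, 3.65 (SE 0.47, adjusted p = 1.2e-06) on days 2.5 and 3 and 3.78 (SE 0.51, adjusted p = 1.4e-06) on days 5 and 7, so that the fold was 10.5, 12.6 and 13.7. FA was higher than N2B27 by 1.69 (SE 0.40, adjusted p = 0.025), 2.63 (SE 0.46, adjusted p = 0.00045) and 3.53 (SE 0.52, adjusted p = 7.5e-06) in the same windows. The first of these was not called within a medium, at 1.28 in 2iL (adjusted p = 0.41) and 2.01 in SL (adjusted p = 0.064). The second was not called within 2iL (2.84, adjusted p = 0.056). A fall from day 2 to day 7 was called from 2iL (-1.38, SE 0.53, adjusted p = 0.026) and rested on the EB libraries, without which it was -0.49 (adjusted p = 0.4). The call was also lost with the DESeq2 Wald test (-1.14, adjusted p = 0.074) and with scaling by library totals alone (-1.20, adjusted p = 0.0503). In a fit of 2iL alone the fall was not called either (-0.97, adjusted p = 0.26). Formative epiblast genes (Otx2, Pou3f1, Dnmt3a, Dnmt3b and Sall2) had summed levels that followed a like order, from 3150 to 3773 CPM in EBs, 812 to 1826 CPM in FA and 661 to 1214 CPM in N2B27 on days 2.5 and 3. Whether cell composition had a part in the Fgf5 differences was not tested.

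Fgf8, which acts in the primitive streak and in brain patterning, was at or below 0.119 CPM on day 0, with 5 reads in the 3 libraries of 2iL and 2 reads in that of SL. It did not pass the test on day 1, at 0.183 ± 0.12 CPM (SD, n = 3) in 2iL and 0.196 ± 0.0749 CPM (SD, n = 3) in SL, where 13 and 10 reads leave a change hard to detect. On day 1.5 it was at 1.34 ± 1.61 CPM (SD, n = 3) in 2iL and 1.1 ± 0.8 CPM (SD, n = 3) in SL. From day 1 to day 2 it increased 14.8-fold in 2iL (log2 3.88, SE 0.67, adjusted p = 7e-05) and 13.9-fold in SL (log2 3.79, SE 0.68, adjusted p = 0.00019), in 3 of 3 courses each, and in a fit of 2iL alone this was not called (3.92, adjusted p = 0.059). The pooled reads gave a ratio of 17.3 (95% exact interval 9.9 to 32.9) in 2iL and 13.7 (7.28 to 29) in SL. Over days 1 to 2 both EBs (log2 2.59, SE 0.46, adjusted p = 0.00012) and FA (2.09, SE 0.48, adjusted p = 0.023) were above N2B27 in 6 of 6 pairs, the latter without a call within 2iL (1.54, adjusted p = 0.26) or SL (2.45, adjusted p = 0.052). The late levels differed between the courses. EBs from 2iL had 3.19, 2.36, 39.8 and 19 CPM on days 2.5, 3, 5 and 7 and EBs from SL 2.25, 2.63, 9.41 and 16.3 CPM. FA from 2iL had 7.62, 16.4 and 10.7 CPM on days 2.5, 3 and 7, and FA from SL 9.55, 7.99, 6.62 and 11 CPM on days 2.5, 3, 5 and 7. N2B27 was highest on day 2.5, at 4.85 CPM from 2iL and 2.65 CPM from SL, and was between 0.231 and 0.892 CPM on days 5 and 7.

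On days 5 and 7 every EB and FA library was above every N2B27 library for Fgf8, and the difference was log2 5.03 for EBs (SE 0.49, 32.7-fold, adjusted p = 1e-08) and 4.25 for FA (SE 0.50, 19-fold, adjusted p = 3.9e-07). Primitive streak and mesoderm genes (T, Mixl1, Eomes, Mesp1, Tbx6 and Kdr) had a summed level of 176 to 733 CPM in these EBs, 22.4 to 88.1 CPM in FA and 9.01 to 11.8 CPM in N2B27. Midbrain and hindbrain genes (En1, En2, Pax2 and Otx2) summed to 53.9 to 133, 36.5 to 52.5 and 6.59 to 19.7 CPM. Most of the sum in EBs and FA was Otx2, which is also on the formative epiblast list. Otx2 was at 44.7 to 130, 24.1 to 46.3 and 2.75 to 13.8 CPM. In the same order, En1 had medians of 4.57, 3.59 and 1.01 CPM. En2, at 0.619, 6.52 and 3.34 CPM, and Pax2, at 0.735, 1.05 and 0.716 CPM, were not highest in EBs. The part of these markers in the Fgf8 difference was not tested. On days 2.5 and 3, FA exceeded N2B27 by 1.80 (SE 0.40, adjusted p = 0.0037), which was not called within 2iL (1.54, adjusted p = 0.079), while EBs were lower than N2B27 in 3 of 4 pairs without passing the test (-0.20, SE 0.41, adjusted p = 0.73).

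Fgf17, the relative of Fgf8, had the lowest maximum of the ligands. It ranged from 0.0557 to 4.04 CPM, and 6 comparisons of days gave no call. On days 5 and 7 it was higher than in N2B27 by 4.36 in FA (SE 0.65, 20.6-fold, adjusted p = 9.6e-06) and by 3.05 in EBs (SE 0.62, 8.28-fold, adjusted p = 0.00026). The FA libraries had 1.9 CPM from 2iL and 2.48 and 1.94 CPM from SL, the EB libraries 4.04 and 0.879 CPM from 2iL and 0.381 and 1.14 CPM from SL, and the N2B27 libraries between 0.0557 and 0.231 CPM. The groups did not overlap, but the call in EBs was lost within SL (2.77, adjusted p = 0.056) and without the 2iL EB libraries (2.19, adjusted p = 0.07). On days 2.5 and 3 the sign differed between the courses. FA was above N2B27 by 1.53 (SE 0.46, adjusted p = 0.027) and EBs were below it by a log2 fold change of -1.31 (SE 0.50, adjusted p = 0.04), in 4 of 4 pairs each, although neither call held within 1 medium.

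Fgf15, the ligand of the early nervous system, rose on day 1 from a level between 0.238 and 0.373 CPM in 2iL and of 0.878 CPM in SL. In 2iL it increased by 4.33 (SE 0.86, adjusted p = 0.00021) and in SL by 3.58 (SE 1.17, adjusted p = 0.028), in 3 of 3 courses each. Pooled reads gave a ratio of 37.7 (95% exact interval 24.5 to 61.3) and of 12.9 (7.86 to 22.7). Without the EB course the rise of Fgf15 was not called in 2iL (3.03, adjusted p = 0.055) or in SL (3.16, adjusted p = 0.052), and in SL it was also lost without the FA course (3.43, adjusted p = 0.13) and in a fit of that medium alone (adjusted p = 0.071).

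In N2B27 the highest Fgf15 levels came on days 3 and 5. N2B27 from 2iL had 1.49, 1.94, 3.84, 23.7, 67.3, 38.2 and 22.7 CPM on days 1, 1.5, 2, 2.5, 3, 5 and 7, and N2B27 from SL had 4.77, 6.86, 9.77, 19, 47.3, 52.9 and 18 CPM. EBs had an early maximum on day 2 (37.5 CPM from 2iL, 27.8 CPM from SL), a low on day 5 (5.6 and 11.9 CPM) and a higher level on day 7 (31.4 and 58.6 CPM). FA reached 29.8 and 26.7 CPM on day 2.5 and was highest on day 7 at 47.3 and 52.3 CPM. Thus EBs were higher than N2B27 on days 1 to 2 by 2.52 (SE 0.43, 5.73-fold, adjusted p = 7.4e-05, 6 of 6 pairs), which was not called within SL (1.64, adjusted p = 0.064), whereas on days 2.5 and 3 and on days 5 and 7 neither EBs nor FA differed from N2B27 by the test, with 2 of 4 pairs in each direction for EBs. Averages over these windows hide opposite signs on single days, which have 1 library per medium and course and no test. The increase from day 2 to day 7 in SL passed narrowly (1.32, SE 0.57, adjusted p = 0.0495) and was not called without the EB course (1.2) or the FA course (1.3).

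**Figure D2:**
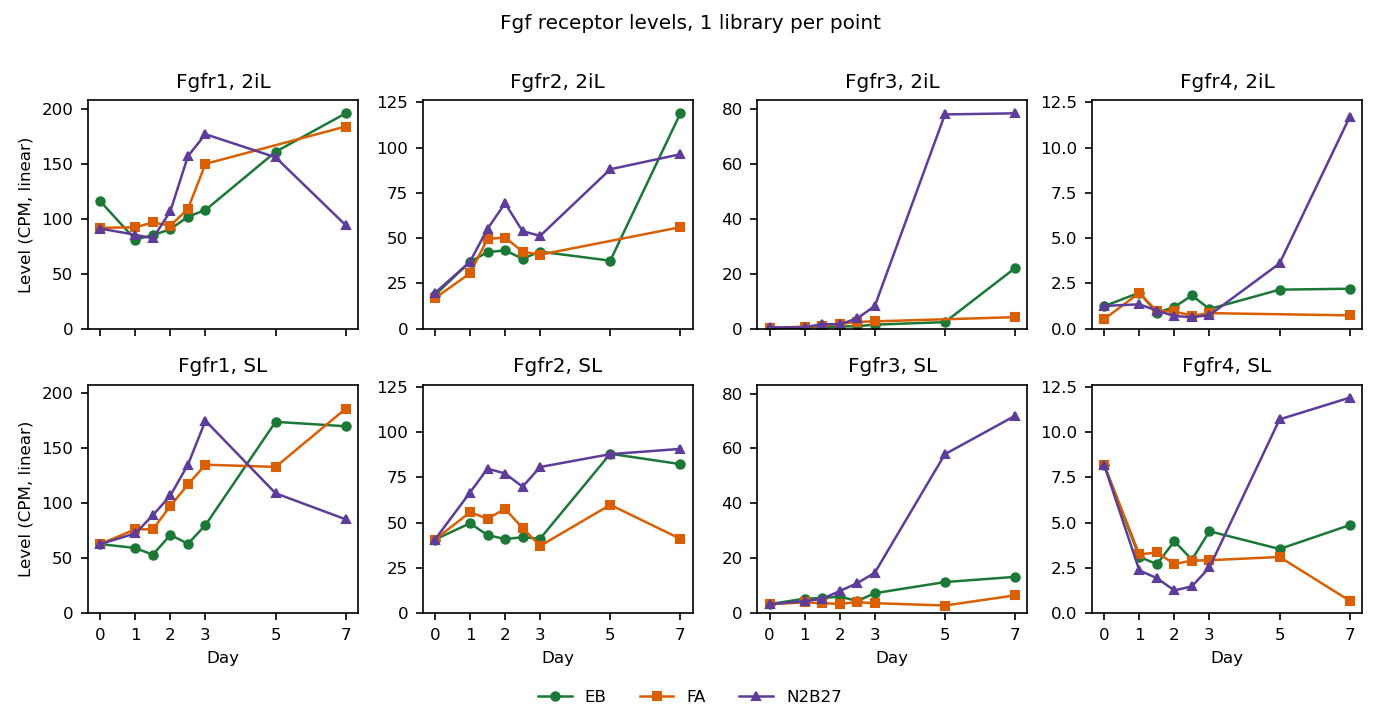
Levels of the 4 receptors in CPM (linear axis from 0, 1 scale per gene) against the day, with 2iL above and SL below and 1 library per point. EB, FA and N2B27 are green circles, orange squares and purple triangles. Fgfr3 reaches 78.5 and 71.9 CPM in N2B27 on day 7 and stays at or below 6.46 CPM in FA, while Fgfr1 in N2B27 is highest on day 3 and lower on day 7.

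Fgfr1, the receptor of the epiblast, was expressed in every library, between 53.1 and 196 CPM. Day 0 levels were 116, 91.8 and 91.1 CPM in 2iL and 62.8 CPM in SL, a difference of 0.78 (SE 0.24, 1.71-fold, adjusted p = 0.013). Over days 1 to 2 the excess of 2iL was 0.28 (SE 0.09, adjusted p = 0.02), in 7 of 9 pairs, and it was not called without the EB course (0.15, adjusted p = 0.2) or the FA course (0.33, adjusted p = 0.072). From day 2 to day 7 Fgfr1 rose by 0.47 in 2iL (SE 0.16, adjusted p = 0.013) and by 0.55 in SL (SE 0.16, adjusted p = 0.0058), in 2 of 3 courses each, and neither was called without the EB or the FA course. N2B27 was the course in which day 7 was below day 2. In N2B27 from 2iL the level was 107, 157, 177, 156 and 94.2 CPM on days 2, 2.5, 3, 5 and 7, and from SL it was 107, 135, 175, 109 and 85.3 CPM. On day 7 it was 196 and 170 CPM in EBs and 184 and 186 CPM in FA. The difference between EBs and N2B27 was -0.42 on days 1 to 2 (SE 0.12, adjusted p = 0.0071, lower in 5 of 6 pairs). This call was lost within 2iL (-0.23, adjusted p = 0.33) and without medium and day as block (-0.41, adjusted p = 0.068). The difference between these courses was -0.97 on days 2.5 and 3 (SE 0.14, adjusted p = 6.6e-06, lower in 4 of 4 pairs). On days 5 and 7 it was 0.60 (SE 0.14, adjusted p = 0.0012, higher in 4 of 4 pairs). FA against N2B27 went from -0.15 on days 1 to 2 (SE 0.12, adjusted p = 0.57) to 0.62 on days 5 and 7 (SE 0.16, adjusted p = 0.0034). Within 2iL neither late difference was called, at 0.44 for EBs (adjusted p = 0.099) and 0.51 for FA (adjusted p = 0.2).

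Fgfr2, the receptor associated with primitive endoderm, was lower on day 0 in 2iL than in SL. The 2iL libraries had 16.9, 18.6 and 19.7 CPM and the SL library 40.6 CPM (log2 -1.02, SE 0.26, adjusted p = 0.0034), beside sums of extraembryonic endoderm markers of 3.26 to 5.44 and 428 CPM. Over days 1 to 2 the difference was -0.30 (SE 0.11, adjusted p = 0.032), and it was not called without the FA course (-0.25, adjusted p = 0.27) or the N2B27 course (-0.23, adjusted p = 0.1). After withdrawal of 2iL it rose by 0.90 on day 1 (SE 0.20, 1.87-fold, adjusted p = 0.00062) and by a further 0.67 to day 2 (SE 0.19, adjusted p = 0.0096), in 3 of 3 courses each time, to 54.3 ± 13.4 CPM (SD, n = 3). Without the FA course (0.64) or the N2B27 course (0.48) the second step was not called. In SL neither step was called, and the first-day change did not differ between the media by the test (0.35, SE 0.33, adjusted p = 0.55). On day 7 it was at 119, 56.1 and 96.4 CPM in EB, FA and N2B27 from 2iL and at 82.3, 41 and 90.7 CPM from SL, so that FA was the lowest in both media. FA was lower than N2B27 in every one of the 13 matched pairs, and the difference was -0.50 on days 1 to 2 (SE 0.14, adjusted p = 0.056), -0.66 on days 2.5 and 3 (SE 0.17, adjusted p = 0.0099) and -1.04 on days 5 and 7 (SE 0.19, 2.06-fold, adjusted p = 0.00013). EBs were lower than N2B27 on days 1 to 2 (-0.65, SE 0.14, adjusted p = 0.00065) and on days 2.5 and 3 (-0.71, SE 0.17, adjusted p = 0.0014), but not by the test on days 5 and 7 (-0.34, SE 0.17, adjusted p = 0.097). Within 2iL the FA call on days 2.5 and 3 was lost (-0.47, adjusted p = 0.36). The EB calls were lost there too, at -0.49 on days 1 to 2 (adjusted p = 0.16) and -0.54 on days 2.5 and 3 (adjusted p = 0.18). On days 5 and 7 the extraembryonic endoderm sum was 1154 to 2641 CPM in N2B27. It was 109 to 345 CPM in FA and 93.4 to 883 CPM in EBs. Over days 1 to 2 the order was the reverse, with medians of 854 CPM in EBs, 482 CPM in FA and 402 CPM in N2B27. On days 2.5 and 3 the medians were 819, 529 and 886 CPM. The part of this sum in the Fgfr2 differences was not tested.

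Fgfr3, the receptor of neural progenitors, had the widest range of the receptors, from 0.266 to 78.5 CPM. The day 0 libraries of 2iL had 0.266, 0.268 and 0.467 CPM and that of SL 3.24 CPM, a difference of -3.15 (SE 0.76, 8.9-fold lower in 2iL, adjusted p = 0.0021). The difference continued over days 1 to 2, when 2iL was lower in 9 of 9 pairs (-2.46, SE 0.31, 5.48-fold, adjusted p = 3.5e-07). Courses from 2iL had between 0.393 and 1.74 CPM on those days and courses from SL between 3.38 and 8.04 CPM, without overlap. The extraembryonic endoderm markers moved in the same direction between the media, with summed levels of 12.3 to 249 CPM in 2iL and 712 to 1905 CPM in SL on days 1 to 2, and their part in the Fgfr3 difference was not tested.

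From day 2 to day 7 Fgfr3 rose by 3.80 in 2iL (SE 0.50, 13.9-fold, adjusted p = 2.8e-07) and by 1.60 in SL (SE 0.44, 3.03-fold, adjusted p = 0.0032), in 3 of 3 courses each. Without the N2B27 course the rise in SL was 0.98 and was not called (adjusted p = 0.14). In N2B27 the level was 3.77, 8.28, 78.1 and 78.5 CPM on days 2.5, 3, 5 and 7 from 2iL and 10.9, 14.7, 57.9 and 71.9 CPM from SL. EBs reached 22.1 and 13.2 CPM on day 7 and FA 4.22 and 6.46 CPM. On days 2.5 and 3 FA was lower than N2B27 by -1.47 (SE 0.40, adjusted p = 0.016) and EBs by -1.69 (SE 0.40, adjusted p = 0.0014). The FA call was lost within 2iL (-1.26, adjusted p = 0.25). Without medium and day as block, neither was called, at -1.61 for FA (adjusted p = 0.32) and -1.50 for EBs (adjusted p = 0.17). Every N2B27 library of days 5 and 7 was above every EB and FA library, and FA was lower by -4.36 (SE 0.49, 20.6-fold, adjusted p = 1.6e-07) and EBs by -2.89 (SE 0.40, 7.42-fold, adjusted p = 1.6e-06). Both lists of markers given above moved with this difference, since neural and extraembryonic endoderm genes were at their highest sums in the same N2B27 libraries, and the part of either was not tested.

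Fgfr4, which is known from endoderm, was the lowest receptor by CPM in 2iL on day 0 apart from Fgfr3. It was at 0.532, 1.25 and 1.26 CPM in 2iL and at 8.17 CPM in SL (-2.84, SE 0.48, 7.16-fold lower in 2iL, adjusted p = 4.5e-05), beside the sums of extraembryonic endoderm markers of 3.26 to 5.44 and 428 CPM. On day 1 it fell in SL by 1.44 on the log2 scale (SE 0.48, adjusted p = 0.03), to 3.11, 3.24 and 2.36 CPM in EB, FA and N2B27. This call was lost without the N2B27 course (-1.33, adjusted p = 0.11) and in a fit of SL alone (-1.43, adjusted p = 0.28). The extraembryonic endoderm sum went the other way in SL, from 428 CPM on day 0 to between 712 and 1905 CPM over days 1 to 2. In 2iL the change of Fgfr4 on day 1 did not pass the test (0.69, SE 0.40, adjusted p = 0.18). The difference between those changes was itself called (2.13, SE 0.63, adjusted p = 0.022). It rests on the single SL library of day 0, and it was not called without the FA course (1.88, adjusted p = 0.072) or without the N2B27 course (2.37, adjusted p = 0.07). Over days 1 to 2 Fgfr4 was lower in 2iL in 9 of 9 pairs (-1.17, SE 0.23, adjusted p = 0.00017).

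Late in N2B27 Fgfr4 was at 3.61 and 11.7 CPM on days 5 and 7 from 2iL and at 10.7 and 11.9 CPM from SL. The EB libraries of these days had between 2.16 and 4.86 CPM and the FA libraries 0.739, 3.1 and 0.683 CPM, so that EBs overlapped with N2B27 and FA did not. FA was lower than N2B27 by -3.06 (SE 0.40, 8.35-fold, adjusted p = 1.3e-06) and EBs by -1.61 (SE 0.32, 3.04-fold, adjusted p = 0.00019). The extraembryonic endoderm sums of 1154 to 2641 CPM in N2B27, 93.4 to 883 CPM in EBs and 109 to 345 CPM in FA moved with Fgfr4, and their part was not tested. On days 2.5 and 3 the sign was the opposite, with EBs higher by 0.90 (SE 0.35, adjusted p = 0.045), a call that was lost with no filter on low counts (adjusted p = 0.065) and within either medium. The rise from day 2 to day 7 in 2iL (1.48, SE 0.40, adjusted p = 0.0023) was 0.15 without the N2B27 course (adjusted p = 0.82).

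**Figure D3:**
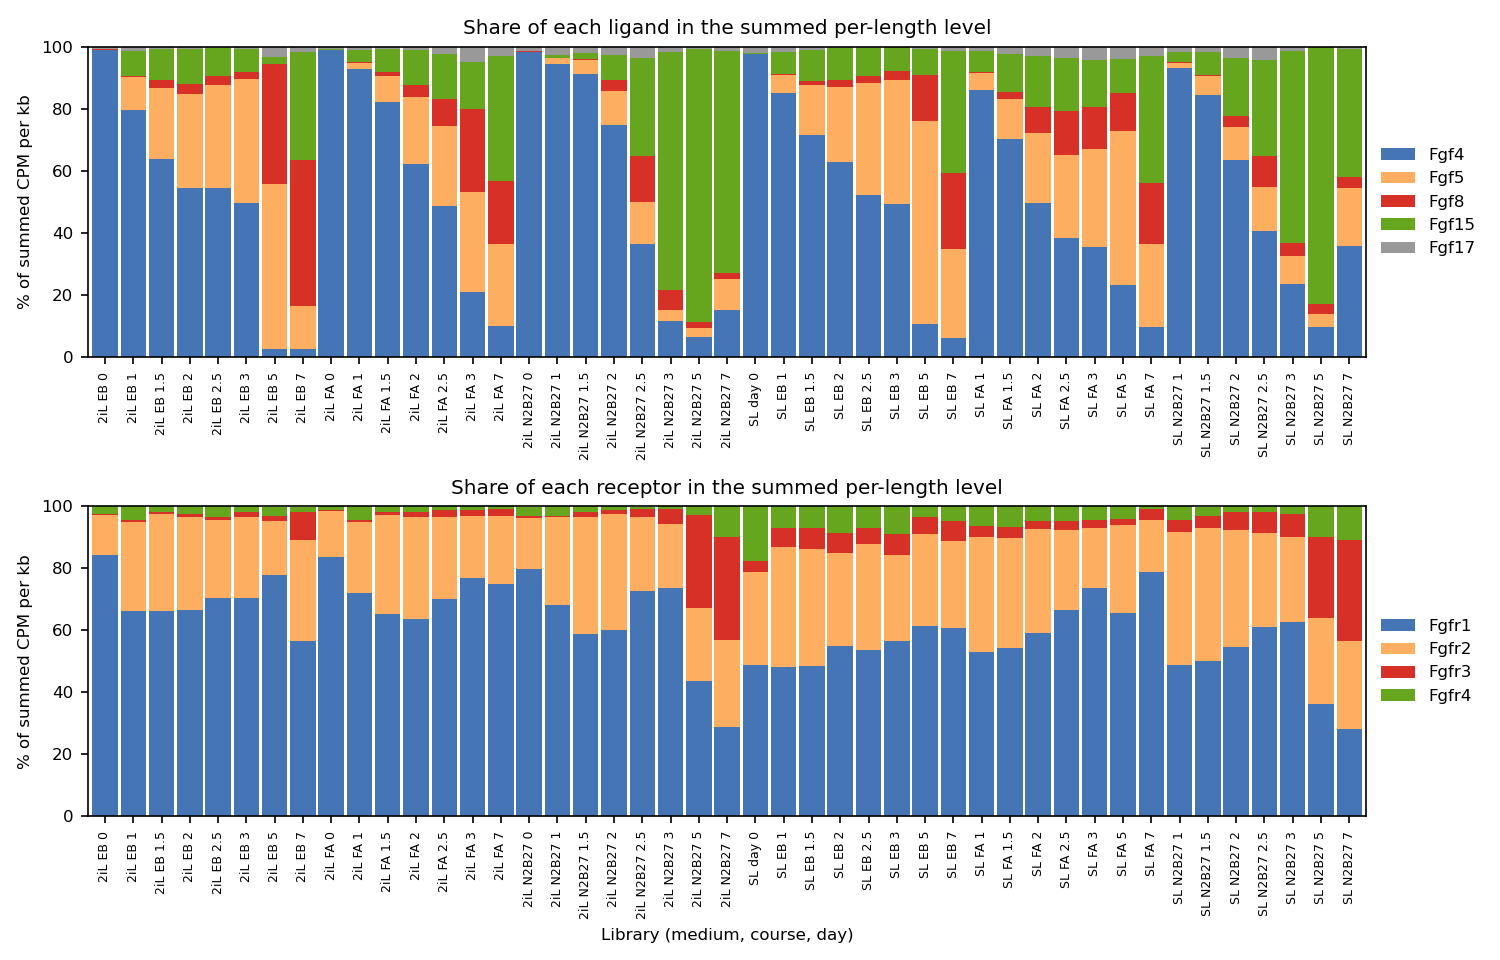
Share of each ligand (upper panel) and receptor (lower panel) in the sum of its class, in percent of CPM per kilobase of exon, for each of the 45 libraries named by medium, course and day. Fgf4 makes up 97.6 to 99.1% of the ligand sum on day 0, and Fgfr1 is the largest receptor in 43 libraries.

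To compare levels between genes, CPM was divided by the exon length of each gene in kilobases (GENCODE M21 union of exons, which sets the scale of every share). On day 0 Fgf4 made up 98.4 to 99.1% of the summed per-length level of the 5 ligands in 2iL and 97.6% in SL. Fgf4 was the largest ligand in 31 libraries, Fgf15 in 9, Fgf5 in 4 and Fgf8 in 1. Fgf15 took 88.1% of the sum in N2B27 from 2iL and 82.7% in that from SL on day 5. In EBs of the same day Fgf5 was the largest, with 53.3% and 65.3%, and Fgf8 had 38.6% and 15% of the sum. The EB library of day 7 from 2iL was the one in which Fgf8 was the largest ligand, at 47.1%.

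Of the summed per-length level of the receptors, Fgfr1 made up 79.9 to 84.3% on day 0 in 2iL and 48.7% in SL, where Fgfr2 had 30.1%. Fgfr1 was the largest receptor in 43 of 45 libraries. The exceptions were the N2B27 libraries of day 7, in which Fgfr3 had 33.2% from 2iL and 32.5% from SL, against 28.8% and 28.1% for Fgfr1. In those libraries the receptors were thus close to evenly spread over Fgfr1, Fgfr2 (28.1% and 28.5%) and Fgfr3. In FA on day 7 Fgfr1 had 74.9% and 78.9% of the sum.

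**Figure D4:**
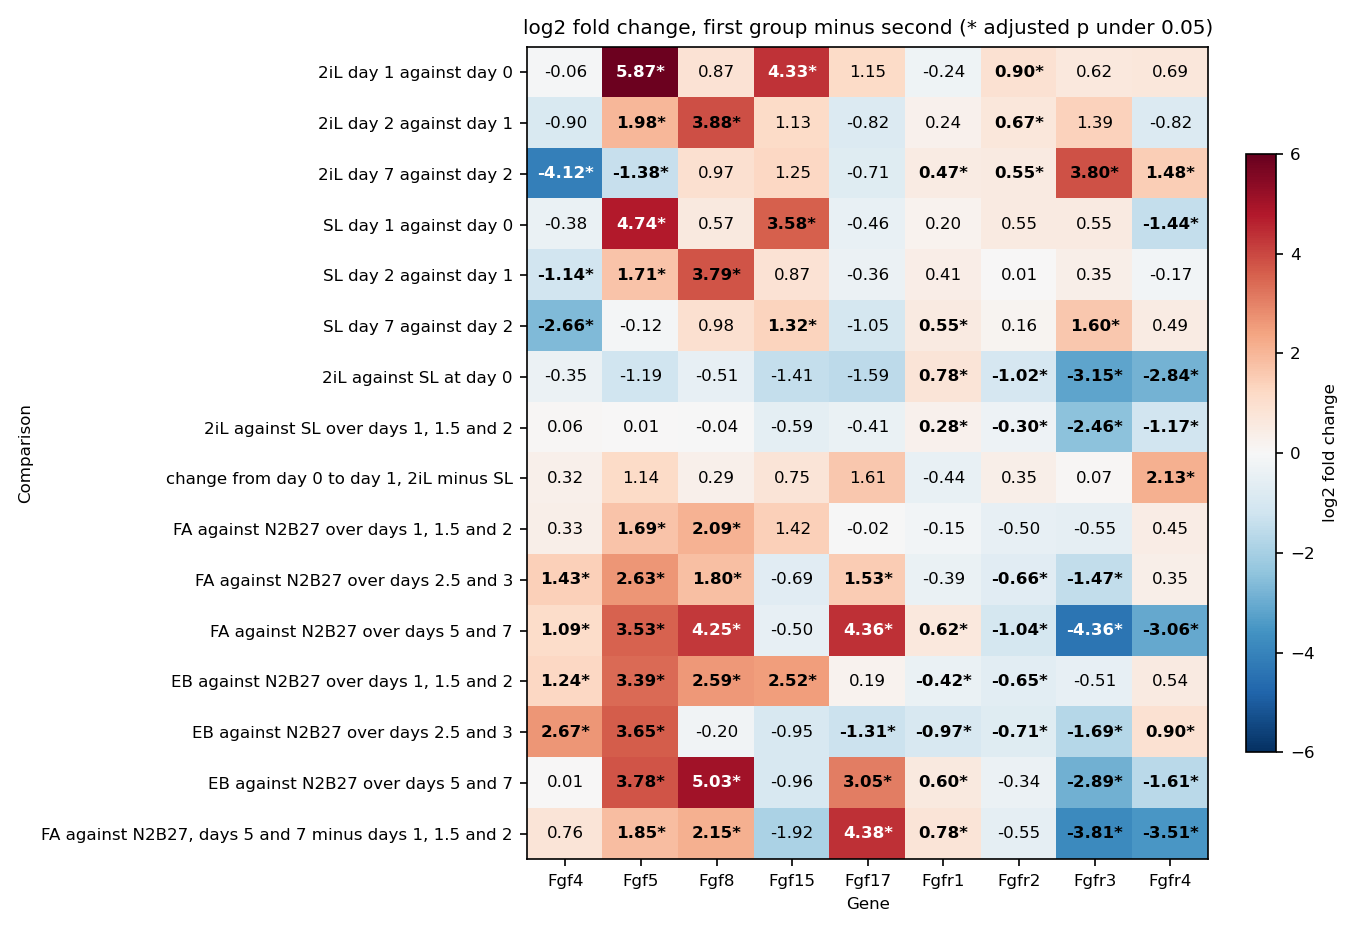
log2 fold changes of the 9 genes (columns) in the 16 comparisons (rows), first group minus second, from the fit over the 45 libraries. Red is higher and blue lower in the first group, and bold values with an asterisk have an adjusted p under 0.05. Fgf5 is higher in EBs and in FA than in N2B27 in every window, and Fgfr3 is lower than in N2B27 in both courses from day 2.5 on.

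The counts of members called are read here against the share of all tested genes called in the same comparison. In 2iL, 3 of 9 members were called between day 0 and day 1 (38.2% of all genes), 3 between day 1 and day 2 (28.9%) and 6 between day 2 and day 7 (63.6%). In SL, 3, 3 and 4 members were called in these steps, against 22.0%, 21.8% and 56.1% of all genes. Between the media, 4 of 9 members were called on day 0 (35.3%) and 4 over days 1 to 2 (41.3%), and in both cases these were the 4 receptors, with Fgfr1 higher and the others lower in 2iL, while no ligand was called. All these shares are near the background, so the number of members called is not particular to them.

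Between the courses the shares of members called were above those of all genes. The members were chosen with earlier results of these data known, so this excess is a description and not a test. FA against N2B27 gave 2 of 9 members over days 1 to 2 (1.71% of all genes), 6 over days 2.5 and 3 (12.6%) and 8 over days 5 and 7 (35.3%). The first of these counts was 0 within 2iL and 0 within SL, and the second was 0 within 2iL and 4 within SL. EBs against N2B27 gave 6 (30.1%), 7 (38.3%) and 6 (45.4%) members. The growth of the FA difference with time was tested as the change from days 1 to 2 to days 5 and 7, and 6 members were called (18.2%). They were Fgf5, Fgf8, Fgf17 and Fgfr1 in the direction of FA and Fgfr3 and Fgfr4 in that of N2B27. In the comparison of the first day between the media, Fgfr4 was the 1 member called (13.9%). EB and FA comparisons share their N2B27 libraries.

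The other genes of the pathway were counted by lists. Of 17 other genes of the Fgf family, which are not all secreted ligands, 10 were tested. From day 2 to day 7 in 2iL, 6 were higher and 1 lower, a share near the 63.6% of all genes called, with a median log2 fold change of 1.51 against 0.02 over all genes, and they included Fgf10 (2.67, SE 0.61, adjusted p = 0.0004) and Fgf3 (2.48, SE 0.61, adjusted p = 0.00093), the neighbour of Fgf4. Fgf1 rose on the first day out of 2iL by 4.59 (SE 0.75, adjusted p = 1.8e-05) and was lower in 2iL than in SL on day 0 by a log2 fold change of -4.77 (SE 0.87, adjusted p = 0.00012). Endogenous Fgf2 was at or below 0.368 CPM in all 45 libraries, also in FA, where the protein is supplied.

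Among the 6 co-receptors and binding partners, Klb, the co-receptor through which Fgf15 acts on Fgfr4, and Flrt3, a membrane protein that binds Fgf receptors, moved most between the courses. On days 5 and 7 Klb was lower in FA by -3.80 (SE 0.47, adjusted p = 6.6e-07) and in EBs by -3.18 (SE 0.40, adjusted p = 4.5e-07) than in N2B27, and Flrt3 by -2.92 (SE 0.39, adjusted p = 2e-06) and -2.26 (SE 0.33, adjusted p = 4.4e-06). Both were also lower in 2iL than in SL over days 1 to 2, at -2.64 (SE 0.27, adjusted p = 1.2e-08) and -2.53 (SE 0.23, adjusted p = 1.6e-09). These are the directions of Fgfr3 and Fgfr4 and of the extraembryonic endoderm sums in the same comparisons. In all, 3 of 6 were lower and none higher in FA, and 4 of 6 lower and none higher in EBs, with medians of -1.0 and -1.13 against 0.02 and 0.01 over all genes, of which 35.3% and 45.4% were called.

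The 18 heparan sulphate proteoglycans and their enzymes were mostly higher late. From day 2 to day 7, 14 were higher and 1 lower in 2iL (median 1.21) and 15 were higher and none lower in SL (median 0.99), against medians of 0.02 and 0.00 and shares called of 63.6% and 56.1% over all genes. The glypican Gpc6 (4.83, SE 0.35, adjusted p = 6.2e-12) and the syndecan Sdc3 (4.21, SE 0.30, adjusted p = 5.9e-12) led in 2iL. The sulphotransferase Hs6st2, which adds sulphate to heparan sulphate, was at or below 0.387 CPM in 2iL on day 0 and rose by 2.39 on day 1 (SE 0.57, adjusted p = 0.0015) and by 2.49 to day 2 (SE 0.40, adjusted p = 3.2e-05). On days 5 and 7, 9 were lower and 2 higher in FA than in N2B27 and 11 were lower and none higher in EBs, where 35.3% and 45.4% of all genes were called. The 18 adaptors and kinases of the ERK cascade changed less, with medians between -0.22 and 0.15 in the 16 comparisons. Those that changed most included Braf, which rose by 1.91 on the first day out of 2iL (SE 0.21, adjusted p = 2.5e-08), and Frs2, the receptor adaptor, which was lower in FA than in N2B27 on days 5 and 7 by -1.24 (SE 0.14, adjusted p = 1.9e-07).

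**Figure D5:**
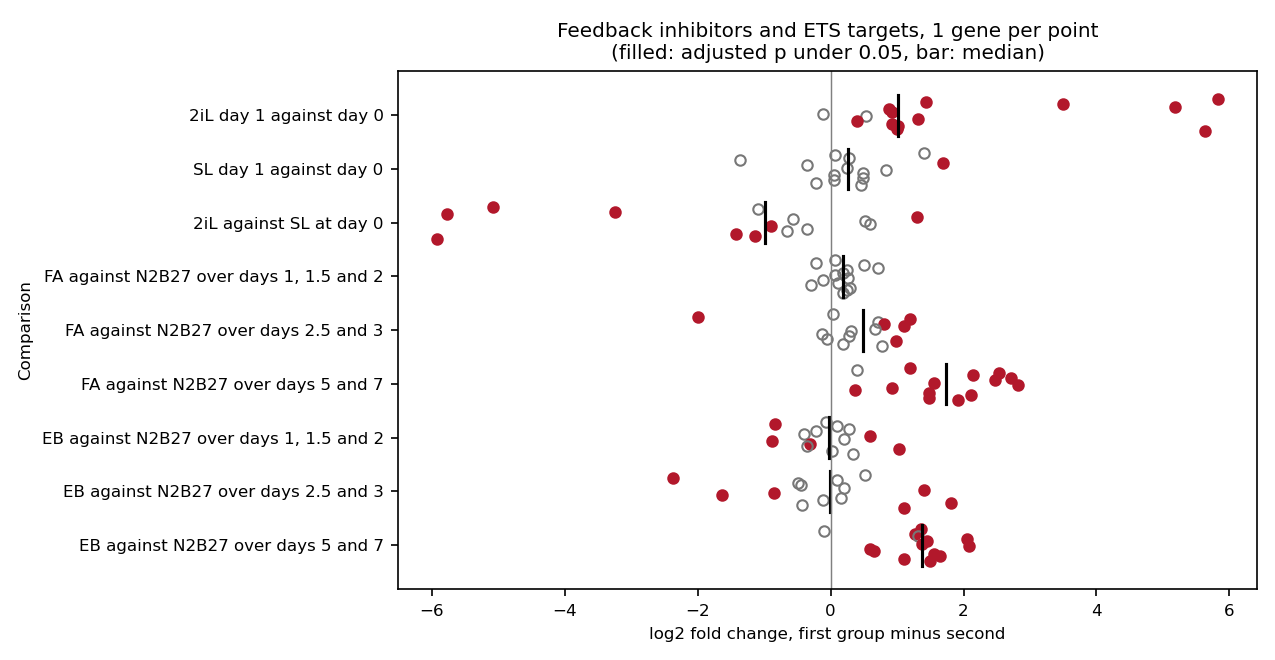
log2 fold changes (first group minus second) of 14 feedback inhibitors and ETS targets of ERK signalling in 9 comparisons, with 1 gene per point, filled red points for an adjusted p under 0.05, and a black bar at the median. The medians are 1.01 for the first day out of 2iL and 1.74 for FA against N2B27 on days 5 and 7.

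Feedback inhibitors and ETS transcription factors are induced by ERK and are often used as a readout of Fgf receptor activity, which was not measured here. Leaving 2iL also removes its MEK inhibitor, which acts downstream of the receptors. Release from that inhibitor and receptor activity thus cannot be told apart on the first day out of 2iL. On the first day out of 2iL, 12 of the 14 tested were higher and none lower (median 1.01, with 38.2% of all genes called), among them the phosphatases Dusp4 (5.83, SE 0.51, adjusted p = 6.4e-10) and Dusp6 (3.50, SE 0.32, adjusted p = 1.9e-09) and the receptor inhibitor Spry4 (5.63, SE 0.43, adjusted p = 5.5e-11), while 1 was higher in SL (median 0.26, with 22.0% called). In FA, whose medium contains Fgf2, 0 of 14 were called against N2B27 on days 1 to 2 (median 0.19), when 1.71% of all genes were called. On days 2.5 and 3, 4 were higher and 1 lower (0.49, with 12.6% of all genes called), and on days 5 and 7, 13 were higher and none lower (1.74, with 35.3%), led by Il17rd (2.82, SE 0.24, adjusted p = 2.1e-09) and Etv1 (2.72, SE 0.28, adjusted p = 3.8e-08). EBs, which receive serum, had 12 higher and none lower on days 5 and 7 (1.37, with 45.4% of all genes called).

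Over the 45 libraries, the member levels were compared with those of 13277 genes on the log2(CPM + 1) scale. These correlations describe likeness over libraries that share courses, media and days. Fgf4 was most like Impa2 (r = 0.95), the pluripotency gene Dppa5a (0.94) and Nphs1 (0.93). Fgf5 was most like Psmb10, Esrp1, a splicing factor of epithelial cells, and Atp10a (0.91 each), and Fgf15 like Mrc2 (0.87), Cdc14a (0.86) and the neural factor Sox11 (0.85). Fgf17, at its low level, had weaker matches, of which the first was Spry2 (0.74), an inhibitor of Fgf signalling. Fgfr1 was most like Rtn3 (0.87), Pbx3 and Gas1 (0.86 each). Fgfr2 was most like Pdgfra and Sox17 (0.82 each), both known from primitive endoderm, Fgfr3 like Pth1r (0.96), Egflam and Rhpn1 (0.94 each), and Fgfr4 like BC025446 (0.86), Tmem116 and B4galnt2 (0.85 each).

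Among the members themselves, the highest correlation was between Fgfr2 and Fgfr3 (0.77), followed by Fgf5 and Fgf8 (0.71) and by Fgfr3 and Fgfr4 (0.67). Fgf4 ran opposite to Fgfr1 (-0.77), Fgfr3 (-0.74) and Fgfr2 (-0.65). The neighbours Fgf4 and Fgf15 had r = -0.46. Fgf4 and Fgf5, with r = 0.02, showed no such likeness. Both were high in EBs of days 1 to 3, and Fgf4 alone was high on day 0.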

How the data were processed

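Per the study's methods, the authors trimmed the strand-specific reads with TrimGalore, aligned them to GRCm38/mm10 with TopHat2 allowing 1 mismatch and counted them per gene by strand with featureCounts on Ensembl release 82. The deposited values are raw counts, with no normalization. CPM was computed here over the library total, in which 435 rows with no gene ID hold at most 0.0014% of the counts. Totals ranged from 13093226 to 39804240.

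Counts were tested with edgeR 4.0.16 (R 4.3.3, TMM scaling, filterByExpr, glmQLFit and glmQLFTest) in 1 model with a level for each medium and day and course effects within 3 windows of days, leaving 23 residual degrees of freedom. P-values were adjusted over 17107 genes by Benjamini-Hochberg with a threshold of 0.05. The scripts were tested on simulated data. Exact intervals (95%) of pooled reads cover counting error only. Alternatives were DESeq2 1.42.0, no TMM, no filter, no course or medium block, single media and libraries left out. Of 183 pairs of libraries compared, none held the same counts within sampling noise.

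Text names every member and, per pathway list and comparison, at most 4 called genes with the largest change, and the 3 genes most correlated with each member, except for Fgf8, whose correlated genes are not reported here. The members and lists were chosen with earlier results of these data known. Fgf2, named because it is supplied in FA medium, and Hs6st2 were chosen after their values were seen where they fall outside that rule. Spry3 and 7 other ligands on the lists were not tested. Exon lengths came from GENCODE M21, which matched 97.8% of genes. Promoters and positions came from RefSeq on GRCm38.p6, and 5 of 9 members had a promoter entry. Day 5 of FA from 2iL was not analysed here.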

Additional observations from a re-analysis of the deposited data

Results flagged for a closer look

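For 7 results, the change between 2 groups of libraries itself differed by a test of the interaction in edgeR. The change of Fgfr4 from day 0 to day 1 was larger in 2iL than in SL by a log2 fold change of 2.13 (SE 0.63, adjusted p = 0.022). The difference between FA and N2B27 was larger in the direction of FA on days 5 and 7 than on days 1, 1.5 and 2 for Fgf5 (1.85, SE 0.65, adjusted p = 0.047), Fgf8 (2.15, SE 0.73, adjusted p = 0.04), Fgf17 (4.38, SE 0.77, adjusted p = 0.00024) and Fgfr1 (0.78, SE 0.20, adjusted p = 0.0066). It moved in the direction of N2B27 for Fgfr3 (-3.81, SE 0.60, adjusted p = 5.7e-05) and Fgfr4 (-3.51, SE 0.48, adjusted p = 1.3e-05). The value of Fgf5 lost its call with DESeq2 (1.76, adjusted p = 0.058), without TMM (1.78, adjusted p = 0.065), with no filter (1.84, adjusted p = 0.054), within 2iL (3.20, adjusted p = 0.16) and within SL (1.04, adjusted p = 0.28). That of Fgf8 was lost within SL (0.93, adjusted p = 0.37) and that of Fgfr1 within 2iL (0.65, adjusted p = 0.26). The Fgfr4 difference between the media was lost without the FA course (1.88, adjusted p = 0.072) and without the N2B27 course (2.37, adjusted p = 0.07). Without the replicate block the calls of Fgf5, Fgf8, Fgfr1, Fgfr3 and the first-day Fgfr4 difference were lost.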

How the results depend on the processing

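No called log2 fold change of a member reversed its sign under any setting, while 441 repeated values stayed called and 116 did not. Of the repeated counts of members called, 97 stayed within 1.5 times the main count, 25 were lower and 5 higher. Without the replicate block (course for days and media, medium and day for courses), the members called were 0 for 2iL day 2 against day 1, 3 for 2iL day 7 against day 2, 0 for SL day 1 against day 0, 0 for SL day 2 against day 1, 1 for SL day 7 against day 2, 1 for the media on day 0, 2 for the media over days 1 to 2, 0 and 1 for FA in the early and middle windows, 4 for EBs in the middle window, 0 for the difference of the first day between the media and 2 for the late minus early FA difference. The block rests on the labelled courses: deviations of libraries of 1 course correlated by 0.52 on average (77 of 78 pairs over 0.1, lowest 0.05) and those of other courses by -0.25. Fitted within its own medium, 2iL day 2 against day 1 gave 0 members and SL day 1 against day 0 gave 1. DESeq2 gave 5 members for 2iL day 2 against day 1 and 4 for early FA, as did leaving out the 2iL EB libraries (5 and 4). Within 2iL, FA gave 0 members in both the early and the middle window and EBs 4 in the middle window, and within SL early FA gave 0. Leaving out 1 course at a time gave 1 to 5 members for 2iL day 2 against day 1, 4 to 6 for 2iL day 7 against day 2, 1 to 3 for SL day 1 against day 0, 1 to 4 for SL day 2 against day 1, 2 to 4 for SL day 7 against day 2, 2 to 4 for the media over days 1 to 2 and 0 to 1 for the first-day difference between the media. With TMM scaling, Fgf4 on day 0 in SL was 229 CPM and Fgfr1 on day 5 in 2iL 153 CPM. The cause of these changes was not tested.

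Over all genes, the calls without the block were 3720 against 6534 in the main fit for 2iL day 1, 2135 against 4941 for 2iL day 2, 951 against 3761 and 1279 against 3735 for these steps in SL, 3046 against 6038 and 4220 against 7062 between the media on day 0 and days 1 to 2, 29 against 292, 310 against 2152 and 2812 against 6044 for FA in the 3 windows, 2437 against 5157, 3567 against 6544 and 4940 against 7759 for EBs, and 493 against 2375 and 587 against 3114 for the interactions. Early FA was the least stable, with 605 genes by DESeq2, 655 without the 2iL EB libraries, 9 within SL and 1316 without TMM, of which 89.7% were higher against 48.6%. Without the N2B27 course 2iL day 1 gave 4221 genes, 2iL day 2 2829, the first SL step 2406, the second 1738 and the first-day interaction 1145. Without FA these were 2667 for 2iL day 2, 2006, 1479 and 968, and 4275 between the media over days 1 to 2. Within its own medium 2iL day 2 gave 2962. Within 2iL, FA gave 724 and 2741 genes in the middle and late windows and 830 for their interaction, and within SL FA gave 625 in the middle window and 1630 for the interaction and EBs 3017 early and 4507 late. Without the 2iL EB libraries FA gave 3257 in the middle window. Without TMM the share of higher calls was 41.6% against 52.1% for 2iL day 2, 37.7% against 48.8% for SL day 1, 37.0% against 49.7% between the media on day 0, 67.8% against 53.5% for FA in the middle window, 69.9% against 50.4% and 63.2% against 50.6% for EBs in the first and middle windows, and 65.9% against 51.0% and 41.0% against 54.1% for the interactions. The median of all genes then moved to 0.18 for 2iL day 7 against day 2 and 0.12 for early FA. Depth limits Fgf5, Fgf8 and Fgf15 on day 0, where the libraries of a medium held 2 to 21 reads in all.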
